A study of Mus musculus with 24 samples.

Results

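The endothelin system of the mouse kidney was followed through 4 genes: Edn1, which encodes the precursor of endothelin-1, Ece1, which encodes endothelin converting enzyme 1, and the receptor genes Ednra and Ednrb. They were looked up by symbol among 56748 gene identifiers. All 4 were found, and all 4 averaged more than 10 normalized counts, the level below which genes were not tested. Poly A RNA had been sequenced from kidneys of 4 groups of 6 libraries each: active males, inactive males, active females and inactive females, where the kidneys of active animals were taken midway through the active period and those of inactive animals midway through the inactive one. Strain, age, genotype and any agent are missing from the labels of every group, and so is a statement that libraries came from different animals. The p-values therefore measure the spread between these libraries, which may be technical.

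Endothelin-1 is a short peptide that constricts vessels. Its precursor is cut by furin to big endothelin, and endothelin converting enzyme, a membrane protease, cuts that to the active peptide. The receptor ETA, encoded by Ednra, sits on vascular smooth muscle and drives contraction, whereas ETB, encoded by Ednrb, is found on endothelium, where it releases nitric oxide and clears endothelin-1, and on collecting duct cells. The collecting duct is the main renal source of endothelin-1, which acts there through ETB to restrain the epithelial sodium channel and so favours sodium excretion. Edn1 has been reported as a target of the clock protein PER1 in collecting duct cells.

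Males had less endothelin receptor RNA than females in both periods, and no difference between the periods passed the test for any of the 4 genes. Ednra stood at 0.445 times the female level in active males, and Ednrb and Ece1 were lower in males in both periods. Edn1 was lower in males in the active period by a smaller margin, which passed the test there and narrowly missed it in the inactive period.

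All 4 genes were called lower in males in the active period, and Edn1 is discussed as a clock target. The sequences just before the transcription starts are therefore shown. They come from RefSeq on the build GRCm38.p6, run 5′ to 3′ on the strand of the gene and cover the 250 bases before a start. Capitals mark matches on either strand to the motifs searched, which were CACGTG (the E-box that CLOCK and BMAL1 bind), ACGTG (the core of the hypoxia response element), GATAA (GATA factors), AGAACA (bound by one partner of a glucocorticoid or androgen receptor pair), TGACGT (the cAMP response element core) and TGACTAA (an AP-1 site). ACGTG lies within every CACGTG. Ece1 has 4 RefSeq starts, and the one numbered 3 is printed because it alone holds an E-box. The bases after the start matched a transcript of the reference annotation for each start printed except that of Ednrb. The 30 bases from 21 to 50 after the Edn1 start are added because 2 of the motifs lie there.
Edn1 (chr13:42301226-42301475, plus strand): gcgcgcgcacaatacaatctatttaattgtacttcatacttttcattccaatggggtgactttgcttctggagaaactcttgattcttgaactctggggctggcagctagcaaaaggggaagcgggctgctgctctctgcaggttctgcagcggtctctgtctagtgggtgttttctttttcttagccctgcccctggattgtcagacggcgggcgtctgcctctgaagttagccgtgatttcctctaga
Edn1, after the start (chr13:42301496-42301525, plus strand): gCACGTtgcctgtgggTGACTAAtcacaca
Ednra (chr8:77724453-77724702, minus strand): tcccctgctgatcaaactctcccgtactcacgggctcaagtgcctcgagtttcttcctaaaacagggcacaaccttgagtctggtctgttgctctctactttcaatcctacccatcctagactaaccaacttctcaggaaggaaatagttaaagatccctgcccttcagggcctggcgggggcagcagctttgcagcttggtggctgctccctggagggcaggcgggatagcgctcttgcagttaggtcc
Ednrb (chr14:103843702-103843951, minus strand): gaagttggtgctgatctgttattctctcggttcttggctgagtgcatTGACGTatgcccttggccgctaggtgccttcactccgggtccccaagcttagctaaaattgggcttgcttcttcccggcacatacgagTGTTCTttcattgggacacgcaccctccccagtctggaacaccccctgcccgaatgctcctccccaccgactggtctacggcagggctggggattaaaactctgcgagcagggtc
Ece1, start 3 (chr4:137913308-137913557, plus strand): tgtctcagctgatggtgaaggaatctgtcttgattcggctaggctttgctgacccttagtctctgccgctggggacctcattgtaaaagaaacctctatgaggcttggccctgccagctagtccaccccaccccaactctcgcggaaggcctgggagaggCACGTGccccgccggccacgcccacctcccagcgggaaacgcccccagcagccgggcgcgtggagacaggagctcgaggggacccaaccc

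Within the 250 bases before the annotated RefSeq start, Edn1 and Ednra held none of the 6 motifs. Ednrb held TGACGT from position -203 and TGTTCT, the reverse complement of AGAACA, from position -115. Ece1 start 3 held CACGTG from position -90. Of the Ece1 starts not printed, start 4 held TGTTCT from position -104, and starts 1 and 2 held none of the 6 motifs. After the annotated start, Edn1 held a match to GATAA from position 9, ahead of the bases shown, CACGT, the reverse complement of ACGTG, from position 22 and TGACTAA from position 37. Whether transcription of Edn1 began at the annotated start in these kidneys was not tested. Counted from a start farther downstream, these matches would lie before it, so their absence upstream holds for the annotated start only. Of 32851 RefSeq promoter windows of the same length, 6.02% held CACGTG, 16.6% ACGTG, 22.6% GATAA, 16.1% AGAACA, 6.47% TGACGT and 2.01% TGACTAA in the bases before the start. A match is a description of letters and not a binding site, and the motifs were chosen with these sequences in view.

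The libraries held 31.04 to 39.3 M reads assigned to genes, recovered from the normalized counts. On a principal component analysis of all tested genes the first component, with 49.6% of the variance, separated the sexes, and the second, with 7.39%, the periods. Kidney markers were present throughout: 4 markers of the thick ascending limb summed to 65762 to 116904 normalized counts per library, and none of the endothelial, smooth muscle, fibroblast or tubular markers was at 0. Of 4 adrenal cortex markers, 2 were at 0 in every group.

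The order of levels along the pathway was read from normalized counts per kilobase of exon, averaged over all 24 libraries. Of the 8 genes with enough reads that make, cut or bind endothelins, Ctsa, for the lysosomal peptidase cathepsin A, which degrades endothelin, stood highest at 1429 ± 205. Mme, which encodes the endothelin-degrading peptidase neprilysin, was at 713 ± 199, with Furin at 409 ± 77.0, Ece1 at 375 ± 61.7 and Ednrb at 240 ± 72.6 per kilobase (SD, n = 24). Below them came the ligand gene Edn3 at 71.5 ± 16.6, Edn1 at 40.1 ± 9.59 and Ednra at 25.98 ± 10.3 per kilobase. The ranges over single libraries overlapped between each pair of neighbours in this order except Ctsa and Mme, and Ednrb and Edn3. In every group the level of Ednrb per kilobase was several times that of Ednra, and that of Edn3 was above that of Edn1. The ligand gene Edn2 had 2 reads in all, in 1 library. Ece2, which encodes a second converting enzyme, had 8 reads in active males, 3 in inactive males, 16 in active females and 1 in inactive females over 6 libraries each, so no level was compared for it. Cma1, the mast cell chymase that can also cut big endothelin, had 14 reads over all 24 libraries, and Kel, a protease of red cells, had 109.

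**Figure D1:**
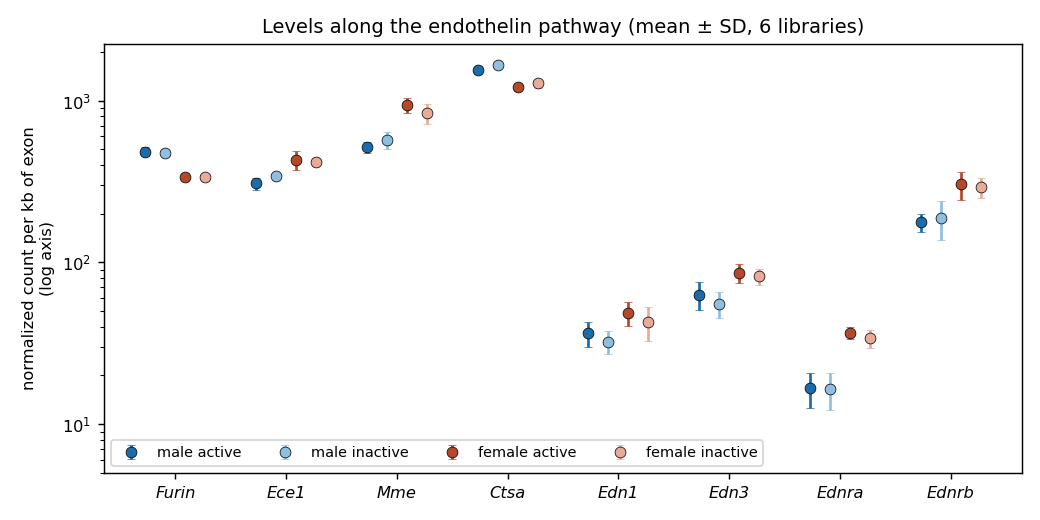
Levels along the endothelin pathway as normalized counts per kilobase of exon on a log axis. Points are means and bars SDs of 6 libraries for active males, inactive males, active females and inactive females. Ednra lies lowest in all 4 groups, and the male points lie above the female points for Furin and Ctsa and below them for the other 6 genes.

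Edn1 (ENSMUSG00000021367) was the least read of the 4 genes, with 55 to 151 reads per library. Its normalized counts had a lowest, median and highest value of 60.0, 78.3 and 96.6 in active males, against 86.2, 101 and 134 in active females. Inactive males had 53.6, 67.1 and 83.4, against 55.6, 95.2 and 117 in inactive females. In the active period 5 of 6 males lay below every female, whereas in the inactive period 1 of 6 did, since the female library numbered 34 was low at 55.6. Edn1 averaged 77.8 ± 13.4 in active males and 104 ± 17.3 in active females (SD, n = 6 each). The log2 fold of males over females was -0.42 ± 0.17 (SE) in the active period, with an adjusted p of 0.0341 in limma, so Edn1 was lower in males. In the inactive period Edn1 averaged 69.2 ± 11.1 in males and 92.0 ± 21.7 in females (SD, n = 6 each), a log2 fold of -0.38 ± 0.17 (SE) with an adjusted p of 0.0565 in limma, just outside the threshold of 0.05. The sex difference of Edn1 was close to the threshold in both periods. With the same libraries edgeR gave an adjusted p of 0.0347 for the active and 0.0377 for the inactive period, and DESeq2 gave 0.0239 and 0.0300. The call in the active period was lost without any 1 of 5 libraries (active females 26 and 27, active males 27, 28 and 30), with adjusted p in limma of up to 0.0954. At a mean of 85.8 normalized counts, counting error alone gives a coefficient of variation of 10.6% over all libraries, against observed values of 16.1% to 23.6% within groups.

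The related ligand gene Edn3, which encodes endothelin-3, a ligand that binds ETB far better than ETA, had more reads and showed the same direction. Edn3 had normalized counts of 205 to 327 in active males, against 290 to 419 in active females, and of 176 to 278 in inactive males, against 272 to 385 in inactive females. Log2 folds of males over females were -0.46 ± 0.13 (SE, adjusted p = 0.00230 in limma) in the active and -0.58 ± 0.13 (SE, adjusted p = 3.03e-04) in the inactive period. The ratio of Edn3 to Edn1 per kilobase averaged 1.80 ± 0.580 in active males, 1.75 ± 0.498 in inactive males, 1.80 ± 0.365 in active females and 1.99 ± 0.444 in inactive females (SD, n = 6 each), with groups that overlapped widely.

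Ece1 (ENSMUSG00000057530), the converting enzyme, was the most abundant of the 4 genes. Its coefficient of variation over all 24 libraries was 16.4%, against 23.9% to 39.8% for the other 3, and within groups it was 5.15% to 13.3%, above that of Ednra (8.83%) in active females. Its normalized counts had a lowest, median and highest value of 1522, 1558 and 1861 in active males, against 1798, 2290 and 2621 in active females. Inactive males had 1641, 1823 and 1917, against 2034, 2210 and 2383 in inactive females. The groups did not overlap in the inactive period, and in the active period 5 of 6 males lay below every female. Ece1 averaged 1632 ± 141 in active males and 2288 ± 305 in active females, and 1818 ± 101 in inactive males and 2213 ± 114 in inactive females (SD, n = 6 each). Males were lower by a log2 fold of -0.48 ± 0.07 (SE, adjusted p = 6.85e-07 in limma) in the active and -0.28 ± 0.07 (SE, adjusted p = 9.70e-04) in the inactive period.

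The other proteases of the pathway did not follow Ece1 as a group. Furin, which makes big endothelin among many other substrates, was higher in males, at 4441 ± 289 normalized counts in active males and 3098 ± 167 in active females (SD, n = 6 each). Its log2 folds of males over females were 0.52 ± 0.05 in the active and 0.51 ± 0.05 in the inactive period (SE), with adjusted p of 2.48e-10 and 4.82e-10 in limma. Mme, for neprilysin, was lower in males, with log2 folds of -0.86 ± 0.09 in the active and -0.56 ± 0.09 in the inactive period (SE, adjusted p = 2.97e-09 and 5.45e-06). Ctsa was higher in males, with log2 folds of 0.35 ± 0.05 and 0.38 ± 0.05 (SE, adjusted p = 8.03e-07 and 2.38e-07). The rise of Ctsa was lost when libraries were scaled to equal totals.

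**Figure D2:**
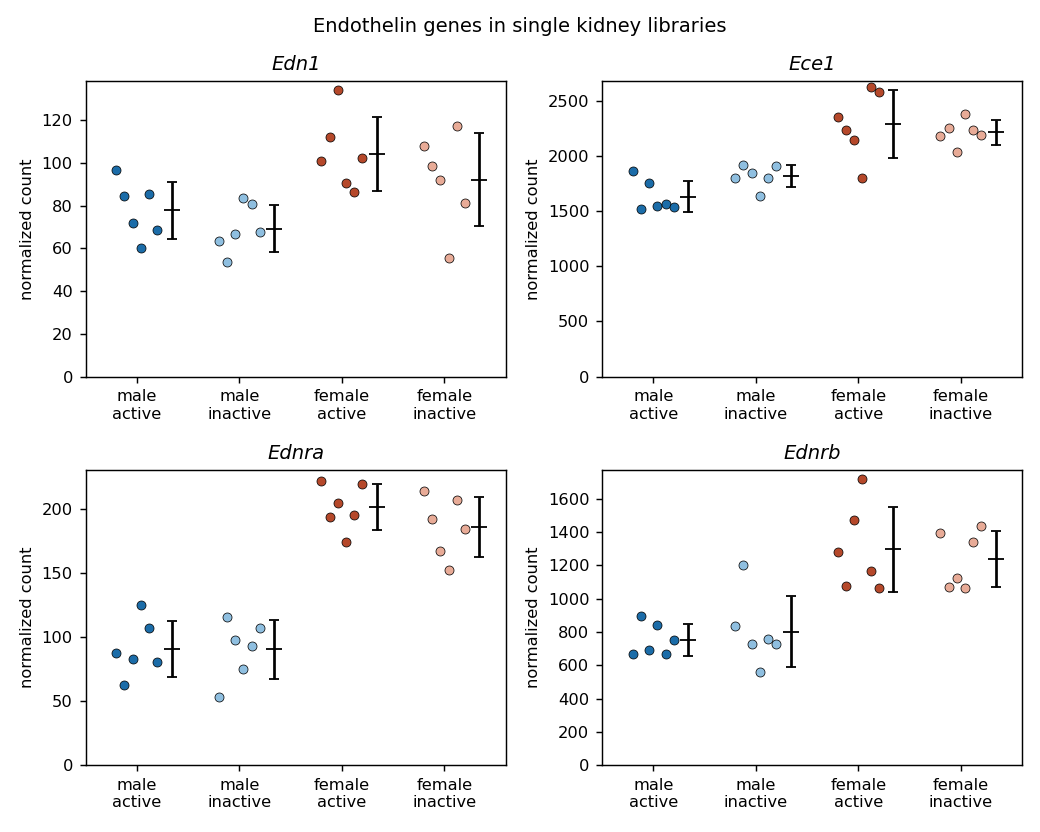
Normalized counts of Edn1, Ece1, Ednra and Ednrb, 1 point per library, for active males, inactive males, active females and inactive females, with the mean and SD of 6 libraries at the right of each group. The male and female points of Ednra do not meet in either period, while those of Edn1 overlap.

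Ednra (ENSMUSG00000031616), for the contractile receptor ETA, had the largest sex difference of the 4 genes in both periods. Its normalized counts had a lowest, median and highest value of 62.8, 85.4 and 125 in active males, against 175, 199.8 and 222 in active females. Inactive males had 53.1, 95.6 and 116, against 153, 188 and 214 in inactive females. All 12 males thus lay below all 12 females. Means were 91.0 ± 21.8 in active males and 202 ± 17.8 in active females, and 90.4 ± 22.9 in inactive males and 186 ± 23.4 in inactive females (SD, n = 6 each). The log2 fold of males over females was -1.17 ± 0.16 (SE, adjusted p = 3.48e-07 in limma) in the active period, with a 95% interval of -1.50 to -0.83. In the inactive period it was -1.07 ± 0.16 (SE, adjusted p = 1.94e-06), with an interval of -1.40 to -0.74. Ednra had 46 to 266 reads per library, so its level in single male libraries is less precise than that of Ednrb or Ece1.

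Ednrb (ENSMUSG00000022122), for ETB, was lower in males by a smaller factor. Its normalized counts had a lowest, median and highest value of 668, 722 and 898 in active males, against 1066, 1223 and 1717 in active females. In the inactive period they were 563, 743 and 1201 in males, against 1065, 1233 and 1438 in females. The groups did not overlap in the active period, and in the inactive period 5 of 6 males lay below every female, the exception being the male library numbered 32 at 1201. Ednrb averaged 753 ± 95.7 in active males and 1297 ± 256 in active females, and 803 ± 214 in inactive males and 1239 ± 170 in inactive females (SD, n = 6 each). Log2 folds of males over females were -0.77 ± 0.14 (SE, adjusted p = 6.70e-05 in limma) and -0.65 ± 0.14 (SE, adjusted p = 4.79e-04) in the active and inactive periods.

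Lower RNA in males was common in these kidneys, so the counts are read against all genes. In the active period 4 of the 4 genes were lower in males and 0 higher, while 30.5% of the 17333 genes tested were lower and 60.6% differed in either direction. In the inactive period 3 of 4 were lower and 0 higher, while 27.8% of all tested genes were lower and 55.7% differed in either direction. The median log2 fold over all tested genes was -0.05 in the active and -0.04 in the inactive period. Groups without overlap and lower in males were found for 2 of 4 genes in the active period (Ednra and Ednrb), against 16.1% of all tested genes, and for 2 of 4 in the inactive period (Ednra and Ece1), against 13.7%. Scaling to equal library totals moved the male minus female log2 folds by a median of -0.27 in the active and -0.28 in the inactive period. The 4 genes stayed lower in males under it, but a downward shift is no test of a lower level in males.

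The receptors were also set against each other within each library, which removes the scaling between libraries. The Ednra to Ednrb ratio per kilobase averaged 0.0957 ± 0.0250 in active males and 0.126 ± 0.0284 in active females, and 0.0905 ± 0.0240 in inactive males and 0.118 ± 0.0130 in inactive females (SD, n = 6 each). Single libraries ranged from 0.0545 to 0.125 in active males against 0.0792 to 0.160 in active females, and from 0.0495 to 0.114 in inactive males against 0.0996 to 0.139 in inactive females. The mean ratio was lower in males in both periods, and the ranges overlapped in both.

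**Figure D3:**
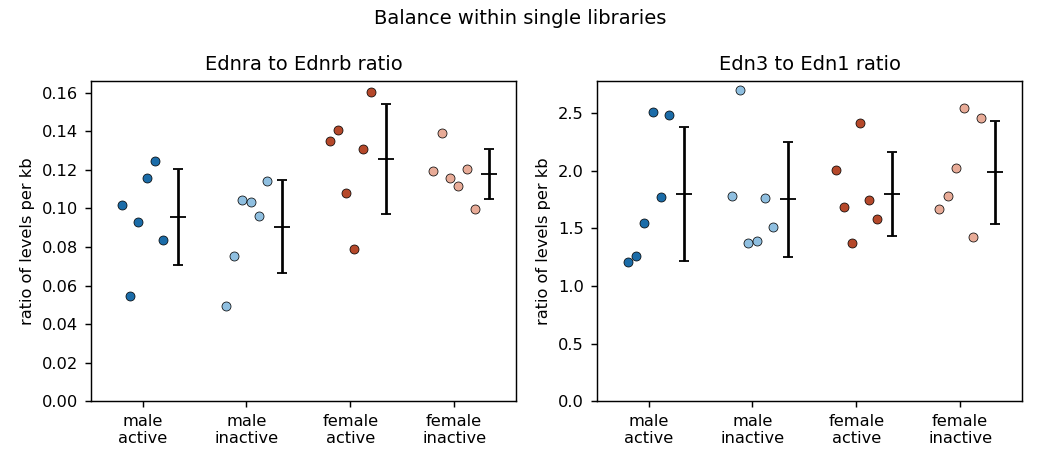
Ratios within single libraries, 1 point each, with the mean and SD of 6 libraries at the right of each group. Left, Ednra to Ednrb per kilobase, with lower means in males and overlapping ranges. Right, Edn3 to Edn1 per kilobase, with means of 1.75 to 1.99 in the 4 groups and 1 inactive male library at 2.70.

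In whole tissue, fewer cells of a type and less RNA per cell cannot be told apart, and markers of the vascular cells that carry these genes were lower in males too. Of all tested genes, 30.5% were lower in males in the active and 27.8% in the inactive period. Of 8 endothelial markers, 7 were lower in males and 0 higher in the active period, and 8 were lower in the inactive period. Their summed normalized counts ranged from 12104 to 14454 in active males against 17109 to 22970 in active females, and from 8665 to 13773 in inactive males against 14746 to 20267 in inactive females. Of 8 markers of vascular smooth muscle and pericytes, 4 were lower in males in the active and 6 in the inactive period, with 0 higher in either. Their sums ranged from 6823 to 7965 in active males against 8911 to 11653 in active females, and from 6167 to 7515 in inactive males against 8674 to 11199 in inactive females. Of 4 podocyte markers, 4 were lower in both periods, of 4 markers of the thick ascending limb 4 were lower in the active and 2 in the inactive period, and of 5 intercalated cell markers 4 and 3, with 0 higher in any of these. Of 6 proximal tubule markers, 4 were lower in males (Lrp2, Cubn, Slc5a2 and Slc5a12) and 2 higher (Slc34a1 and Slc22a6) in both periods, with median log2 folds of -0.19 in the active and -0.27 in the inactive period. Their sums were higher in males, at 235916 to 263266 in active males against 164674 to 212986 in active females and 226181 to 241509 in inactive males against 194684 to 220980 in inactive females, and Slc34a1 was the most abundant of the 6. The part of these markers in the sex differences of the endothelin genes was not tested.

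Set against those sums, the 4 genes parted. Ednra was 1.26 ± 0.322% of the smooth muscle and pericyte sum in active males and 2.01 ± 0.357% in active females, and 1.33 ± 0.314% in inactive males and 1.88 ± 0.248% in inactive females (SD, n = 6 each), so Ednra was lower in males by more than the sum was. Against the sum of 4 fibroblast markers it was 2.94 ± 0.562% in active males and 4.21 ± 0.736% in active females, but 3.67 ± 1.07% in inactive males and 3.70 ± 0.351% in inactive females. Ednrb was 5.90 ± 0.987% of the endothelial sum in active males and 6.39 ± 0.686% in active females, and 7.53 ± 0.793% in inactive males and 6.78 ± 1.11% in inactive females, a difference that changed direction between periods. Ece1 was 12.7 ± 0.512% of the endothelial sum in active males and 11.5 ± 2.32% in active females, and 17.5 ± 2.18% in inactive males and 12.2 ± 2.11% in inactive females. Edn1 was 0.606 ± 0.0951% in active males and 0.521 ± 0.0953% in active females, and 0.681 ± 0.190% in inactive males and 0.493 ± 0.0701% in inactive females. These shares are descriptions and were given no test.

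Of the collecting duct markers, which bear on the main renal source of Edn1, those of principal cells did not show one direction. Those of intercalated cells, given above, had 4 of 5 lower in males in the active and 3 of 5 in the inactive period, with 0 higher. Of 6 principal cell markers, 3 were higher (Aqp2, Aqp3 and Fxyd4) and 2 lower (Hsd11b2 and Scnn1g) in males in the active period, and 0 were higher and 3 lower (Fxyd4, Hsd11b2 and Scnn1g) in the inactive period. Their sums were 11146 to 12803 in active males against 9310 to 12222 in active females, and 9381 to 11952 in inactive males against 11699 to 14026 in inactive females. The part of collecting duct markers in the sex difference of Edn1 was not tested.

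The period of collection made no called difference to the 4 genes. In females the log2 folds of active over inactive were 0.20 ± 0.17 for Edn1, 0.12 ± 0.16 for Ednra, 0.05 ± 0.14 for Ednrb and 0.04 ± 0.07 for Ece1 (SE). Their adjusted p in limma were 0.490, 0.698, 0.860 and 0.785, so 0 of 4 passed, and 0 of 4 had an unadjusted p under 0.05, while 15% of all tested genes were called and 27.4% had such a p. In males 0 of 4 passed, against 15.4% of all tested genes, with log2 folds of 0.16 ± 0.17 for Edn1, 0.02 ± 0.16 for Ednra, -0.06 ± 0.14 for Ednrb and -0.16 ± 0.07 for Ece1 (SE). Ece1 in males was the 1 of 4 with an unadjusted p under 0.05 (0.0305, adjusted p = 0.120 in limma), against 30.4% of all tested genes. Its counts were 1522 to 1861 in active males against 1641 to 1917 in inactive males, and 4 of 6 active males lay below every inactive male. Without the active male library numbered 25, which was the highest at 1861, the fold of Ece1 was -0.20 with an adjusted p of 0.0469. Averaged over both sexes 0 of 4 passed, against 23.5% of all tested genes, and 0 of 4 had an unadjusted p under 0.05, against 35.3%. The counts were 0 of 4 with edgeR and DESeq2 in each of these 3 comparisons as well.

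The intervals say how large a period difference the data could still hold. For the mean of both sexes the 95% interval of the log2 fold of active over inactive ran from -0.06 to 0.43 for Edn1, from -0.16 to 0.31 for Ednra, from -0.21 to 0.21 for Ednrb and from -0.16 to 0.04 for Ece1. Edn1 was higher in the active period on average, at 77.8 ± 13.4 in active against 69.2 ± 11.1 in inactive males and 104 ± 17.3 in active against 92.0 ± 21.7 in inactive females (SD, n = 6 each). That difference was within the spread of the libraries, with an unadjusted p of 0.138 in limma. A miss of the threshold does not show that the levels were equal. Each period was sampled only at its midpoint, so in any gene a rhythm that peaks between those times could be missed.

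The sex difference of the period change was not called for any of the 4 genes either, against 2.71% of all tested genes called and with 0 of 4 at an unadjusted p under 0.05, against 18.7% of all tested genes. It was -0.04 ± 0.24 for Edn1, -0.10 ± 0.23 for Ednra, -0.12 ± 0.20 for Ednrb and -0.20 ± 0.10 for Ece1 (log2 fold in males minus that in females, SE). Ece1 came nearest, with an unadjusted p of 0.0551 and an adjusted p of 0.278 in limma. The larger male minus female fold of Ece1 in the active than in the inactive period is this same difference.

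**Figure D4:**
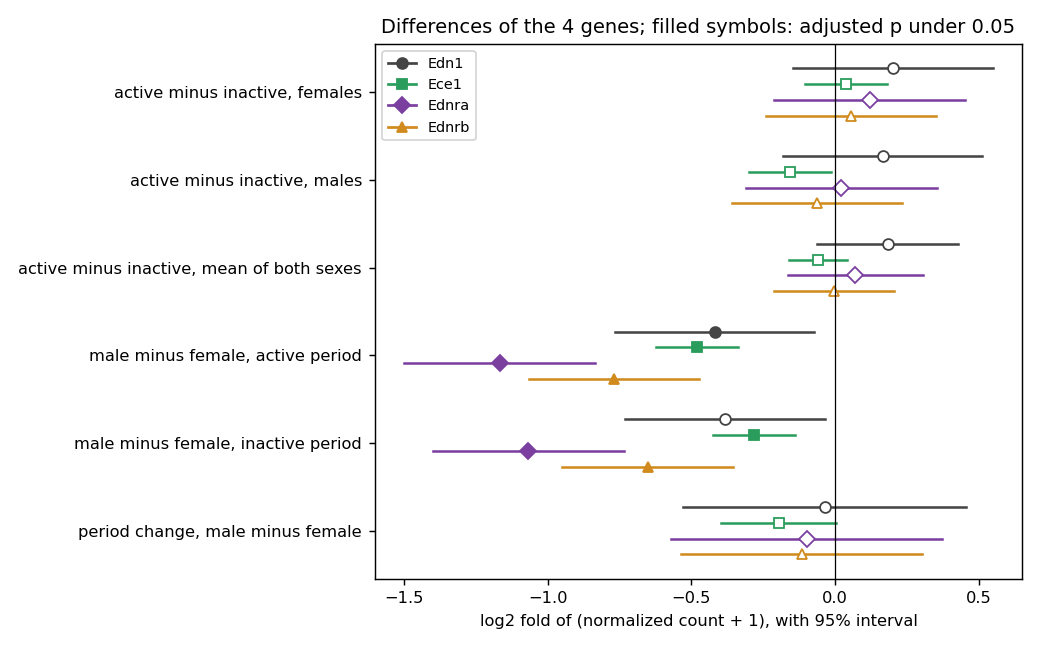
Log2 folds of Edn1, Ece1, Ednra and Ednrb with 95% intervals in 6 comparisons. Filled symbols have an adjusted p under 0.05 in limma. All filled symbols stand in the male minus female comparisons, from -0.28 for Ece1 in the inactive period to -1.17 for Ednra in the active period.

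Regulators named in the literature for Edn1 were measured in the same libraries, and Arntl and Cry1 among them differed strongly between the periods while Edn1 was not called. Arntl, the gene of BMAL1, had 405 to 793 normalized counts in active males against 39.9 to 150 in inactive males, and 924 to 1336 in active females against 36.2 to 164 in inactive females. Its log2 folds of active over inactive were 2.80 ± 0.34 in males and 3.62 ± 0.34 in females (SE, adjusted p = 1.47e-05 and 1.82e-07 in limma). Cry1, a repressor of the clock, rose in the active period by 2.71 ± 0.26 in males and 2.85 ± 0.26 in females, and Clock, the partner of BMAL1, by 0.33 ± 0.06 in males and 0.55 ± 0.06 in females (log2 fold, SE). Cry2, another repressor of the clock, was higher in active than in inactive males by 0.32 ± 0.09, and in females its log2 fold of 0.16 ± 0.09 did not pass (SE, adjusted p = 0.0141 and 0.237 in limma). Per1 was not called in any of the 6 comparisons: it had a log2 fold of -0.24 ± 0.38 in males and 0.00722 ± 0.375 in females (SE, adjusted p = 0.718 and 0.995), with 564 to 1407 normalized counts in active males against 359 to 1890 in inactive males. Nr3c2, for the mineralocorticoid receptor, through which aldosterone raises Edn1 in collecting duct cells, was lower in active than in inactive males by -0.32 ± 0.06 (log2 fold, SE, adjusted p = 6.80e-04). Of the 18 regulators, 3 were higher and 0 lower in the active period in females, and 6 were higher and 2 lower in males (Nr3c2 and Jun). Over all tested genes, 15% were called between the periods in females and 15.4% in males. The call of Jun in males was lost without any 1 of 3 libraries (active male 29, inactive males 33 and 36).

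Between the sexes, 11 of the 18 regulators were lower in males and 0 higher in the active period, and 11 were lower and 2 higher in the inactive period. Over all tested genes 30.5% were lower in males in the active and 27.8% in the inactive period. Nr3c2 was lower in males by -0.68 ± 0.06 in the active and -0.50 ± 0.06 in the inactive period, and Nfat5, the osmotic response factor, by -0.78 ± 0.08 and -0.59 ± 0.08 (log2 fold, SE). Epas1, for the hypoxia factor HIF-2 alpha found in endothelium, was lower in males by -0.50 ± 0.06 and -0.62 ± 0.06, and Vezf1, a vascular zinc finger factor, by -0.35 ± 0.04 and -0.23 ± 0.04. Smad3, which carries the signal of transforming growth factor beta, was lower in males by -0.57 ± 0.08 and -0.66 ± 0.08. The 2 higher in inactive males were the immediate early genes Jun and Fos, which form AP-1. Jun had 1022 to 6566 normalized counts in inactive males against 579 to 1139 in inactive females, and Fos had 57.4 to 2307 against 23.7 to 246. Both spread widely within the inactive males, and a link of either to Edn1 was not tested.

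Downstream of the receptors, most genes of nitric oxide and prostanoid signalling were lower in males. Of 8, 7 were lower in males and 0 higher in the active period, and 5 were lower and 0 higher in the inactive period. The shares lower in males over all tested genes were 30.5% in the active and 27.8% in the inactive period. Gucy1a1 and Gucy1b1, the subunits of the soluble guanylate cyclase that senses nitric oxide in smooth muscle, were lower in males by -1.004 ± 0.12 and -1.15 ± 0.12 in the active period and by -1.14 ± 0.12 and -1.28 ± 0.12 in the inactive period (log2 fold, SE, with adjusted p of at most 1.19e-07). Gucy1a1 had 616 to 860 normalized counts in active males against 1358 to 1708 in active females. Ptgs1, for cyclooxygenase 1, was lower in males by -0.35 ± 0.10 and -0.65 ± 0.10, and Ptges, for a prostaglandin E synthase, by -0.43 ± 0.12 and -0.50 ± 0.12. Calls between the periods covered 15% of all tested genes in females, 15.4% in males and 23.5% averaged over both sexes. In the active against the inactive period none of the 8 was called in females, and 1 was lower and 0 higher in males. That 1 was Nos2, for inducible nitric oxide synthase, which averaged 20.8 normalized counts. Its call in males was lost without any 1 of 3 libraries (active male 28, inactive males 34 and 35). Averaged over both sexes 1 was lower, Nos2, and 1 higher, Ptges, with a log2 fold of 0.24 ± 0.08 (SE), a call that was lost without any 1 of 11 libraries (active females 28, 29 and 30, inactive females 31 and 36, active males 26 and 30, inactive males 33, 34, 35 and 36).

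The genes that carry the receptor signal were mixed. Of all tested genes, 30.5% were lower in males in the active and 27.8% in the inactive period. Of the 23 signalling genes, 3 were higher and 11 lower in males in the active period, and 4 were higher and 8 lower in the inactive period. The lower ones included Itpr2, a calcium release channel, with -0.94 ± 0.06 and -0.86 ± 0.06, Rgs5, a pericyte gene that damps G protein signals, with -0.69 ± 0.07 and -0.68 ± 0.07, and Plcb4, a phospholipase C, with -0.61 ± 0.09 and -0.54 ± 0.09 (log2 fold of males over females, SE, active and inactive period). The higher ones were Gna12, Gna13 and Rhoa in both periods and Prkca in the inactive period. Gna12 and Gna13, for alpha subunits of G proteins, had log2 folds of 0.34 ± 0.07 and 0.15 ± 0.05 in the active and 0.40 ± 0.07 and 0.31 ± 0.05 in the inactive period (SE). With equal library totals none of these was called higher: Gna13 had -0.13 in the active period, and Rhoa -0.0727 in the active and -0.11 in the inactive period, the last of these called lower. The call of Gna13 in the active period was also lost without active female 26 or active male 30. Rgs5 was also one of the 8 smooth muscle and pericyte markers. Rock2, for a kinase that promotes smooth muscle contraction, was lower in males by -0.46 ± 0.07 in the active and -0.18 ± 0.07 in the inactive period (log2 fold, SE).

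Between the periods, 15% of all tested genes were called in females and 15.4% in males. Of the 23 signalling genes, 4 were higher and 0 lower in active than in inactive females, and 2 were higher and 2 lower in males. In females they were Rock2 with 0.30 ± 0.07, Prkcd with 0.29 ± 0.05, Gna13 with 0.22 ± 0.05 and Arrb1, for a beta-arrestin that uncouples receptors from G proteins, with 0.17 ± 0.05 (log2 fold of active over inactive, SE, adjusted p of 7.37e-05 to 0.0224 in limma). In males the higher ones were Arrb2, for the other beta-arrestin, with 0.34 ± 0.10, and Grk2, for a kinase that marks activated receptors, with 0.17 ± 0.06. The lower ones were Rgs2, for an inhibitor of Gq signals, with -0.61 ± 0.20, and Rock1, related to Rock2, with -0.18 ± 0.06 (SE, adjusted p of 0.0197 to 0.0436 for these 4). Rgs2 had 596 to 1190 normalized counts in active males against 807 to 1651 in inactive males, so the periods overlapped. The call of Arrb1 was lost without active female 27 or 28 or inactive female 31 or 36, and that of Arrb2 without active male 26 or inactive male 36. In males the call of Grk2 was lost without any 1 of 7 libraries (active 25, 26, 27 and 28, inactive 34, 35 and 36), that of Rock1 without any 1 of 7 (active 26, 27 and 29, inactive 33, 34, 35 and 36) and that of Rgs2 without any 1 of 8 (active 25, 26, 27 and 29, inactive 31, 33, 35 and 36). Averaged over both sexes 7 of the 23 were higher and 1 lower, against 23.5% of all tested genes called in either direction.

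The 3 subunits of the epithelial sodium channel, which ETB restrains in the collecting duct, were all lower in males. By period, Scnn1a differed in both sexes and Scnn1g in males. Over all tested genes 30.5% were lower in males in the active and 27.8% in the inactive period. Between the periods 15% of them were called in females and 15.4% in males. Scnn1a had 3605 to 4006 normalized counts in active males against 2385 to 3227 in inactive males, and 4746 to 5991 in active females against 3264 to 3839 in inactive females, so the periods did not overlap in either sex. Its log2 folds of active over inactive were 0.41 ± 0.06 in males and 0.56 ± 0.06 in females (SE, adjusted p = 5.04e-05 and 1.82e-07 in limma). Scnn1g had 1178 to 1438 normalized counts in active males against 1144 to 1299 in inactive males, a log2 fold of 0.17 ± 0.06 (SE, adjusted p = 0.0429). That call was lost without any 1 of 9 libraries (active males 25, 27, 29 and 30, inactive males 31, 33, 34, 35 and 36). Males were lower than females by -0.48 ± 0.06 in the active and -0.34 ± 0.06 in the inactive period for Scnn1a, and by -0.43 ± 0.06 and -0.55 ± 0.06 for Scnn1g (log2 fold, SE). Scnn1b was lower by -0.17 ± 0.06 and -0.37 ± 0.06, and its call in the active period was lost without any 1 of 3 libraries (active females 27 and 28, active male 30). Scnn1g was also one of the 6 principal cell markers.

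Over the 60 pathway genes besides the 4, 56 were tested. Of these 5 were higher and 34 lower in males in the active period with a median log2 fold of -0.39, and 8 were higher and 29 lower in the inactive period with a median of -0.35. Over all tested genes 30.5% were lower in the active and 27.8% in the inactive period, with medians of -0.05 and -0.04. Between the periods 8 were higher and 0 lower in active than in inactive females, and 10 were higher and 5 lower in active than in inactive males, with medians of 0.08 and 0.03. Over all tested genes 15% were called between the periods in females and 15.4% in males, with medians of -0.0016 and 0.0146.

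**Figure D5:**
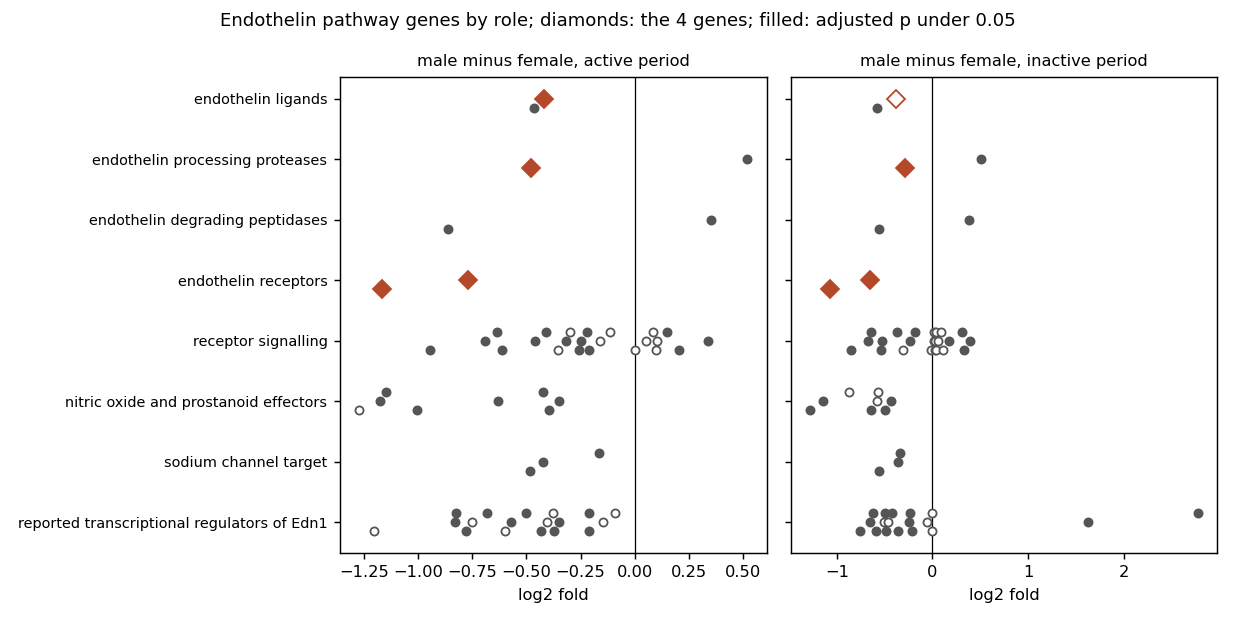
Log2 folds of males over females for the tested pathway genes by role, in the active period (left) and the inactive period (right), on different axes. Diamonds are Edn1, Ece1, Ednra and Ednrb, circles are other genes, and filled symbols have an adjusted p under 0.05 in limma. Most filled symbols lie below 0, Furin and Ctsa lie above it in both periods, and Jun and Fos lie farthest above it in the inactive period.

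Within groups, correlations between pairs of the 4 genes were low and changed when 2 libraries were left out. After the group means were taken out, Pearson correlations between pairs of them over the 24 libraries lay between -0.31 (Ednrb with Ece1) and 0.23 (Ednra with Ece1), as a description with no test. Without the 2 libraries farthest from the median of one gene of the pair they lay between -0.42 and 0.39. Edn1 with Ednrb, at -0.19 over all libraries, was -0.42 without those of Edn1 and 0.0472 without those of Ednrb. Ednra with Ednrb, at 0.12, was 0.39 without those of Ednra and 0.0132 without those of Ednrb, and Ednrb with Ece1 was -0.26 without those of Ednrb and -0.0823 without those of Ece1. Over 12401 genes that averaged 50 or more normalized counts, the closest to Ece1 were Slc7a7 (r = 0.844), Rgl1 (0.780), Jarid2 (0.778), Aacs (0.775) and Sh3bp2 (0.770), and without the 2 libraries farthest from the median of Ece1 they were at 0.662 to 0.754. Among the closest to Ednrb were Ecm1 (0.810), Dkk3 (0.792), Prelp (0.791) and Zfp366 (0.780), and without the 2 libraries farthest from the median of Ednrb these values were 0.635 to 0.683. For Ednra they were Oxr1 (0.748), Hhat (0.736), Zcchc3 (0.729), Rassf9 (0.719) and Pfkfb3 (0.694), and without its 2 farthest libraries Rassf9 was at 0.428 and the other 4 at 0.615 to 0.696. For Edn1 they were Parp16 (0.708), Tep1 (0.704), Rpusd2 (0.694), Slc17a4 (0.694) and Mfsd7a (0.685), and without its 2 farthest libraries Rpusd2 was at 0.544 and the other 4 at 0.632 to 0.807. The closest genes were picked as the highest values among 12401 genes, and how high such values run by chance was not tested. All these correlations share libraries and scaling factors, and Edn1 and Ednra carry more counting error than Ednrb and Ece1. Genes on the opposite strand overlap exons of Edn1 by 35 bases (Gm47118) and of Ednra by 91 bases (4933431K23Rik), and their mean normalized counts were 0.803 and 4.82. Whether counting used strand is not given, so reads in those bases cannot be told apart.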

How the data were processed

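The values are a signal that the authors deposited, gene counts divided by 1 size factor per library, per the labels and the values. Named in the submitters' processing notes are the build GRCm39, DESeq2 1.28.1, featureCounts, Subread 2.0.6 and Trim Galore 0.6.10. Annotation release and strand setting: not given in the sources used here. Symbols and exon lengths came from an annotation of the older build GRCm38, and 52073 of 56748 identifiers had a symbol. Whole reads were recovered by dividing each library by the step between its values, and 100% of values were whole within 0.05. The 24 libraries were grouped by their labels.

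A pseudocount of 1 was added before log2, so folds of low genes are understated. The 17333 genes with a mean of at least 10 were fitted together in limma 3.58.1 (R 4.3.3, trended and robust prior), and p-values were adjusted per comparison by Benjamini and Hochberg and called under 0.05. Alternatives were pseudocounts of 0.5 and 5, no filter, a mean of at least 50, TMM, upper quartile and equal-total scaling, only the groups compared, edgeR 4.0.16 and DESeq2 1.42.0 on recovered reads, the replicate number as a block, and each library left out. For sex in the active period limma called 10509 genes, edgeR 10432 and DESeq2 10635. The method was tested on simulated data. Other genes were named by rule, at most 4 of each list and comparison with the smallest p among called genes, besides the members, their relatives and, by choice after seeing values, Per1, Cma1, Kel, Fos, Jun, Gna12, Gna13, Rhoa, Prkca, Smad3, Vezf1, Cry2 and the proximal tubule markers. A gene that the rule picks is not reported here. The members, lists and motifs were chosen with earlier results of these data known.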

Additional observations from a re-analysis of the deposited data

Results flagged for a closer look

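The ratio of Edn3 to Edn1 per kilobase was 2.70 in the inactive male library numbered 32, against 1.37 to 1.78 in the other 5 inactive male libraries, a gap large enough to stand apart by Dixon's test at the 95% level. The same library held the highest Ednrb count of the inactive males, at 1201. Of 28 groups of 6 libraries examined this way 1 stood apart, and chance is expected to mark about 1 in 20.

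Prkcd, which encodes a protein kinase C activated downstream of the endothelin receptors, differed between the sexes in its period change by -0.27 (log2 fold in males minus that in females, adjusted p = 0.0249 in limma). It had 2501 to 3139 normalized counts in active males against 2578 to 2939 in inactive males, and 3164 to 3381 in active females against 2583 to 2896 in inactive females, so the female periods did not overlap. The adjusted p was 0.0524 with no filter on low values and 0.0501 without the inactive male library numbered 33.

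Jun, which encodes a subunit of AP-1, differed in its period change by -2.002 (log2 fold in males minus that in females, adjusted p = 0.0419 in limma). Jun had 676 to 1940 normalized counts in active males against 1022 to 6566 in inactive males, and 999 to 1983 in active females against 579 to 1139 in inactive females. The call was lost in 18 of the 24 fits that left out 1 library, in which the difference ranged from -2.28 to -1.74.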

How the results depend on the processing

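Equal totals and upper quartile scaling moved male minus female folds downward over all genes, so they are no test of a lower level in males. The lower levels of Ednra, Ednrb and Ece1 in males held under all 11 alternatives and with each library left out, in both periods. Edn1 did not. In the active period its adjusted p was 0.0702 with no filter on low values and 0.0539 with the replicate number as a block, both at a log2 fold of -0.42, and folds without 1 library ranged from -0.48 to -0.34. In the inactive period Edn1 passed with a mean of at least 50 (-0.38, adjusted p = 0.0496), upper quartile scaling (-0.45), equal totals (-0.66), edgeR (-0.42, adjusted p = 0.0377) and DESeq2 (-0.42, adjusted p = 0.0300), over an adjusted p of 0.00172 to 0.111 for the 11 alternatives, and ranged from -0.52 to -0.31 without 1 library (passing without inactive female 34, inactive male 34 or inactive male 35). Period differences near 0 changed sign. Ednra in males was -0.00418 with upper quartile scaling and -0.00652 with equal totals, and -0.12 to 0.12 without 1 library. The other ranges without 1 library were -0.0309 to 0.11 for Ednrb and -0.00296 to 0.11 for Ece1 in females, -0.16 to 0.0613 for Ednrb and -0.20 to -0.14 for Ece1 in males, and -0.000307 to 0.12 for Ednra and -0.0512 to 0.0579 for Ednrb over both sexes. For the sex difference of the period change Edn1 was 0.00276 with edgeR and -0.11 to 0.10 without 1 library, and Ednrb -0.21 to 0.00683. The cause of these changes was not tested.

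Over all genes, 1756 were called for the period in males with only the groups compared, against 2665. For the sex difference of the period change 470 were called, 247 with no filter, 946 with DESeq2 and 276 to 780 without 1 library (276 without active female 28, 780 without active male 25, 290 to 293 without inactive female 32 or 33 or inactive male 33). Equal totals changed the called genes from 5219 higher and 5290 lower in active males to 2635 and 8821, and from 4844 and 4818 in inactive males to 2051 and 9054. For the period they gave 1020 higher and 1570 lower in females (main 1382 and 1210), 1130 and 1458 in males (main 1461 and 1204) and 1581 and 2448 over both sexes (main 2183 and 1889), and upper quartile scaling 1181 and 1521 in males and 1751 and 2335 over both sexes. Whether a number shared by a male and a female library pairs them is not given. Deviations of such pairs correlated at -0.104 to 0.124, over 0.1 for 1 of 12 pairs. For the numbers 26, 30 and 34 each library was closest to its own number among those of the other sex in that period. Low correlations cannot exclude that such libraries were handled together. The replicate block gave 10297, 9448 and 531 calls for sex in the active period, sex in the inactive period and the difference of period changes. With equal totals Gna13 was -0.13 and Rhoa -0.0727 in active males and Rhoa -0.11 in inactive males, against females. The period fold of Per1 in females was -0.0132 with upper quartile scaling, -0.0252 with equal totals, -0.0979 with edgeR and -0.0914 with DESeq2, and -0.194 to 0.148 without 1 library. Of the named genes outside the main results, 113 fits lost a call.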
